A study of Mus musculus with 4 samples.

Results

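Low-count barcodes rich in sarcomeric RNA were droplet barcodes of the libraries treated with 5-Azacitidine (5-Aza) that carried 1000 to 4999 unique molecular identifiers (UMIs, counted RNA molecules) and in which 6 sarcomeric genes, Acta1, Actc1, Mylpf, Myl1, Tnnc2 and Tnnt3, together made up at least 1% of the UMIs. There were 1198 such barcodes among 39891 in the series, 633 in the H3WT 5-Aza library and 565 in the H3R26C 5-Aza library. The barcodes were thus chosen by their measured UMIs and sarcomeric share, and the depth of these barcodes and their level of the 6 genes only describe the choice.

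The series held 4 single-cell RNA-sequencing libraries of C3H10T1/2 cells, a mouse mesenchymal progenitor line, made on the 10X platform. The cells carried a stable lentiviral transgene for wild-type histone H3 (H3WT) or for H3 with the R26C substitution (H3R26C), driven by the EF1 promoter in addition to the cell's own histone genes, and were treated with DMSO or with 5-Aza, a DNA demethylating agent. The 5-Aza cells received 3 µM for 24 h and were collected on day 28; no collection day was given for the DMSO cells. Each of the 4 conditions was 1 library, so neither the genotypes nor the treatments had a replicate check, and a difference between the genotypes cannot be told apart from one between libraries. The libraries held 6239 barcodes (H3WT DMSO), 15002 (H3WT 5-Aza), 6540 (H3R26C DMSO) and 12110 (H3R26C 5-Aza), with 89918846, 93489599, 86080659 and 117738555 UMIs.

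The sarcomere is the contractile unit of striated muscle: thin filaments of actin with troponin and tropomyosin slide along thick filaments of myosin, and the giant protein titin (Ttn) spans from its edge to its middle. Differentiating muscle precursors switch on Myod1 and then Myog, fuse through the membrane proteins myomaker (Mymk) and myomixer (Mymx), and fill a shared cytoplasm with sarcomeric RNA. In a cell, long non-coding RNAs such as Malat1 and Neat1 stay in the nucleus, and the mitochondrial genome makes its own RNAs inside mitochondria, so the 3 kinds of RNA come from different places of the cell.

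Comparison classes were taken from the same libraries. High-count sarcomeric barcodes passed the same 1% limit with at least 5000 UMIs (103 in H3WT, 175 in H3R26C). Low-count other barcodes had 1000 to 4999 UMIs but less than 1% of the 6 genes (1742 and 1600), and high-count other barcodes had at least 5000 UMIs and less than 1% (5917 and 7473). Levels are given as counts per 1000000 UMIs of a class (CPM), summed over its barcodes and not divided by gene length. Ratios are log2 of one class over another within a library. Their 95% intervals come from the exact binomial interval of one class's share of the counts of both. Intervals of summed levels are exact Poisson. All of them cover counting error only, since cells of 1 library are not replicates and no test across samples was possible. In place of a test, a gene was counted as past the limit when it differed by more than 2-fold and reached 50 CPM in either class.

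Barcodes of this kind made up a large part of the low-count barcodes after 5-Aza. They were 26.7% of the 2375 barcodes with 1000 to 4999 UMIs in H3WT (exact binomial 95% interval 24.9 to 28.5%) and 26.1% of 2165 in H3R26C (24.26 to 28.002%). Among barcodes of at least 5000 UMIs the same 1% limit was passed by 1.71% (1.40 to 2.07%) and 2.29% (1.97 to 2.65%). These shares rest on both values of the rule and describe the choice, and the level of the 6 genes outside the chosen class was itself higher at low count. Of all sarcomeric barcodes with 1000 UMIs or more, 86.0% (83.3 to 88.4%) in H3WT and 76.4% (73.1 to 79.4%) in H3R26C lay below 5000 UMIs. In the DMSO libraries no barcode was chosen: 0 of 884 low-count barcodes in H3WT, which allows a share of up to 0.339%, and 0 of 581 in H3R26C, which allows up to 0.516%. High-count sarcomeric barcodes were also at 0 of 3742 and 0 of 4737 in DMSO. Acta1, skeletal alpha-actin, had 4 UMIs over all low-count DMSO barcodes of H3WT and 0 in those of H3R26C.

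**Figure D1:**
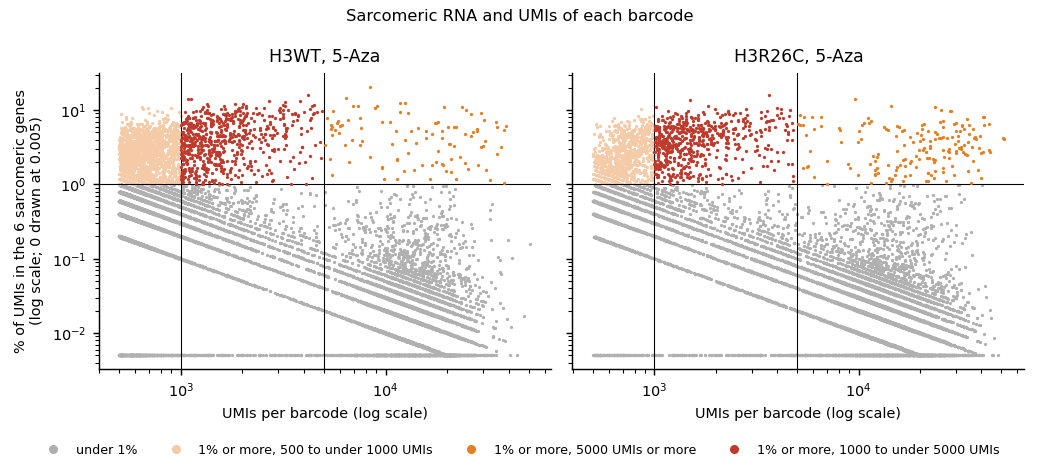
Each point is 1 barcode of a 5-Aza library (left H3WT, right H3R26C), placed by its UMIs (x, log axis) and by the percent of its UMIs in the 6 sarcomeric genes (y). Dark red marks the 633 and 565 low-count sarcomeric barcodes, which crowd towards 1000 UMIs and continue below it in light orange, and orange marks the 103 and 175 high-count ones.

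The chosen barcodes lay near the lower depth limit. Their median was 1477 UMIs in H3WT and 1474 in H3R26C, with 754 and 772 genes detected per barcode. High-count sarcomeric barcodes had medians of 15045 and 21428 UMIs. The 6 genes took a median of 3.98% of UMIs in H3WT and 3.95% in H3R26C, up to 16.2% and 16.1%. Nearest to the 1% limit, the highest barcode left out held 0.994% in H3WT and 0.989% in H3R26C, and the lowest barcode taken held 1.004% and 1.002%. At the depth limits, the nearest sarcomeric barcodes had 997 and 1000 UMIs at the lower end and 4904 and 5077 at the upper end in H3WT, and 999 and 1000, then 4789 and 5061, in H3R26C. The barcodes thus ran on below 1000 UMIs without a gap. The median share of the 6 genes in low-count other barcodes was 0.184% and 0.124%, above the 0.0181% and 0.0207% of high-count other barcodes, and no doublets were removed. All chosen barcodes fall outside a filter of at least 5000 UMIs such as the study applied, and only 19 and 25 of them held 1500 genes or more.

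Before the results, the barcodes were checked for sharing between libraries. Both 5-Aza libraries together had 228 barcode sequences in common, and 0 of them were chosen barcodes in both. Without chosen barcodes whose sequence occurred in any other library, 616 and 543 were left. Of the chosen barcodes, 0 lay 1 base from a barcode of 5000 UMIs or more in its own library.

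Of the 4 genes that mark the group, 3 are genes of the rule: Acta1, Mylpf (fast regulatory myosin light chain) and Tnnc2 (fast troponin C). Acta1 (ENSMUSG00000031972, GRCm38 chr8:123891769-123894751) had levels of 20230 CPM (H3WT) and 19775 CPM (H3R26C), against 726 and 621 CPM in low-count other barcodes. Mylpf (ENSMUSG00000030672, chr7:127208890-127214298) was at 11375 and 11866 CPM against 414 and 377 CPM. Tnnc2 (ENSMUSG00000017300, chr2:164777161-164779967) was at 4663 and 3894 CPM against 213 and 131 CPM. Ttn (ENSMUSG00000051747, chr2:76703980-76982547) was not in the rule and went differently: 3026 CPM against 2201 CPM in H3WT, a log2 ratio of 0.46 (0.40 to 0.52), and 1934 against 2181 CPM in H3R26C, a log2 ratio of -0.17 (-0.25 to -0.10). These sums were drawn by a few barcodes: in H3R26C, 50 low-count other barcodes held 47.9% of that class's Ttn UMIs. By barcode, the chosen class was higher, with a median Ttn share of 0.156% against 0.0991% in H3WT and 0.0874% against 0.0482% in H3R26C. Reads of Acta1, Actc1 and Acta2 (skeletal, cardiac and smooth muscle actin) come from near-identical coding sequences, and how they were split between the genes is uncertain.

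The first comparison asked whether the low-count sarcomeric barcodes held nuclear RNA at the level of the high-count ones. They held less: the 9 nuclear-retained non-coding RNAs on the list summed to 3889 CPM (3774 to 4007) in H3WT and 3873 CPM (3752 to 3997) in H3R26C, against 13351 and 10618 CPM in high-count sarcomeric barcodes. The log2 ratios were -1.78 (-1.83 to -1.73) and -1.45 (-1.50 to -1.41). The summed level of low-count other barcodes was higher, 36891 and 58569 CPM, and 347 and 807 Malat1-rich barcodes held 96.8% and 98.5% of the Malat1 UMIs of that class. The size depended on the limits. With low-count barcodes from 2000 UMIs the ratios were -0.96 and -0.75. With a limit of 5% sarcomeric RNA in both classes they were -2.96 and -2.50. In H3WT the medians over the whole class went with the sum, 0.0912% at low against 0.370% at high count. So did those of the strata under 5%: 0.157% against 0.614% at 1 to 2%, and 0.0930% against 0.480% at 2 to 5%. From 5% on, the H3WT medians per barcode went against it. At 5 to 10% sarcomeric RNA the median share of the list was 0.0656% at low against 0.0368% at high count. From 10% on it was 0.0576% against 0.0323%. The low-count medians of these strata rest on very few UMIs per barcode. In H3R26C the median was lower at low count, 0.0869% against 0.242% at 5 to 10%. Malat1 (ENSMUSG00000092341, chr19:5795690-5802672) made up nearly all of the list. Its level was 3608 CPM against 12596 CPM in H3WT, a log2 ratio of -1.80 (-1.85 to -1.76), and 3573 against 10007 CPM in H3R26C, a log2 ratio of -1.49 (-1.54 to -1.44). Neat1, the RNA scaffold of nuclear paraspeckles, was at 86.3 and 183 CPM in low-count sarcomeric barcodes against 1010 and 2784 CPM in low-count other barcodes.

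Malat1 was spread unevenly over the barcodes. The median barcode had 0.0820% of its UMIs in Malat1 in H3WT and 0.1005% in H3R26C, against 0.343% and 0.560% in high-count sarcomeric and 0.821% and 0.697% in high-count other barcodes. Low-count other barcodes had medians of 0.137% and 1.08%. In H3WT, 393 of the 633 barcodes (62.1%) had less than 0.1% Malat1, and in H3R26C 282 of 565 (49.9%). At the other end, 15 barcodes in H3WT (2.37%) and 10 in H3R26C (1.77%) had 1% or more, and these few held 75.3% and 69.6% of all Malat1 UMIs of the class. In high-count sarcomeric barcodes 1% or more was reached by 19 (18.4%) and 44 (25.1%), and in low-count other barcodes by 347 (19.9%) and 807 (50.4%). The summed Malat1 level of the low-count sarcomeric class thus described a small number of Malat1-rich barcodes more than its typical barcode.

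No Malat1 UMI at all was found in 163 barcodes of H3WT (25.8%) and 103 of H3R26C (18.2%). A barcode with few UMIs can miss a gene by sampling, so each barcode was also thinned to 1000 UMIs. Thinned, Malat1 was seen in 59.6% and 65.7% of low-count sarcomeric barcodes (unthinned 74.3% and 81.8%), 66.0% and 84.0% of high-count sarcomeric, 71.0% and 85.7% of low-count other and 97.6% and 96.7% of high-count other barcodes. Low-count sarcomeric barcodes had the lowest share of the 4 classes in both libraries at equal depth, with a small gap to the high-count sarcomeric class in H3WT. Free RNA in the droplets can also give a Malat1 UMI, and its part was not tested.

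**Figure D2:**
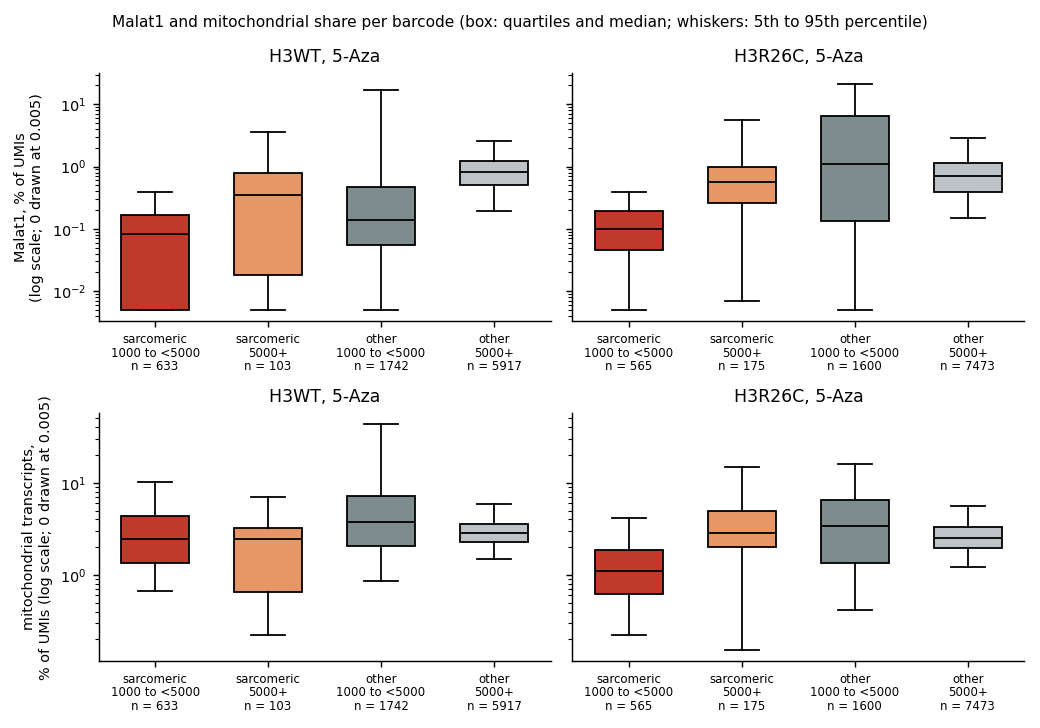
Percent of a barcode's UMIs in Malat1 (top) and in the 13 mitochondrially encoded mRNAs (bottom), by class, for H3WT and H3R26C 5-Aza, on log axes; boxes are quartiles with the median and whiskers the 5th to 95th percentile of barcodes. Low-count sarcomeric barcodes have the lowest Malat1 medians (0.0820% and 0.1005%), and their mitochondrial medians (2.48% and 1.10%) lie near that of high-count sarcomeric barcodes in H3WT (2.46%) and below it in H3R26C (2.88%).

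Mitochondrial RNA went in opposite directions in the 2 libraries. The 13 mRNAs of the mitochondrial genome, which encode subunits of the respiratory chain and of ATP synthase, made up 3.98% of the UMIs of low-count sarcomeric barcodes against 3.03% in high-count ones in H3WT, a log2 ratio of 0.39 (0.38 to 0.41). In H3R26C they made up 1.71% against 3.95%, a log2 ratio of -1.21 (-1.23 to -1.19). All 13 were higher in H3WT, none past 2-fold, and all 13 were lower in H3R26C, 9 of them past 2-fold, beside 1.23% of all genes past 2-fold higher in H3WT and 9.21% past 2-fold lower in H3R26C. For mt-Co1, a core subunit of cytochrome c oxidase, the levels were 5967 against 4786 CPM in H3WT and 3027 against 7467 CPM in H3R26C. The H3WT direction depended on which barcodes entered. There, 15 of the 633 barcodes had more than 20% mitochondrial UMIs. Without barcodes over 20% or under 500 genes the ratio was 0.0012, and with a 5% limit on sarcomeric RNA it was -0.18. The H3WT medians of barcodes with 5 to 10% sarcomeric RNA went the other way, 1.85% at low against 1.40% at high count. The medians per barcode were 2.48% against 2.46% in H3WT and 1.10% against 2.88% in H3R26C. The H3R26C ratio also depended on the barcodes: under 0.1% Malat1, a setting described below, the ratios were 0.66 and -0.016. Barcodes under 1% mitochondrial UMIs numbered 90 (14.2%) in H3WT and 253 (44.8%) in H3R26C, against 32 (31.1%) and 22 (12.6%) of the high-count sarcomeric ones. Low-count other barcodes had more mitochondrial RNA than low-count sarcomeric ones in each library, 9.66% and 6.03% of their UMIs.

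Nuclear and mitochondrial RNA both changed along depth among sarcomeric barcodes, and not in 1 direction. From the 1000 to 1499 UMI bin to the 3000 to 4999 UMI bin the median Malat1 share went from 0.0977% to 0.0318% in H3WT (327 and 65 barcodes) and from 0.162% to 0.0522% in H3R26C (294 and 58 barcodes). It was lowest at 5000 to 9999 UMIs, 0.0183% and 0.0332%, on 34 and 25 barcodes, and then stood at 0.441% and 1.06% at 10000 to 19999 UMIs and 0.788% and 0.545% from 20000. Below 10000 UMIs these medians rest on very few Malat1 UMIs per barcode, near the floor of counting. A share at that floor falls as UMIs rise, so the fall over the low bins cannot be told apart from it. By the medians, the Malat1-poor range therefore reached past the 5000 UMI limit and ended near 10000. The summed share went the other way over the first span, from 0.147% to 0.987% in H3WT and from 0.164% to 0.884% in H3R26C, and stood at 0.118% and 1.19% at 5000 to 9999 UMIs, so single Malat1-rich barcodes lay in these bins. At 1000 to 1499 UMIs barcodes with less than 1% of the 6 genes had nearly the same Malat1 medians as the chosen ones, 0.0999% and 0.183%. At 3000 to 4999 UMIs they had 1.26% and 2.70%. In the bin of 2000 to 2999 UMIs sarcomeric and other barcodes had medians of 0.0481% and 0.109% in H3WT and of 0.0467% and 2.23% in H3R26C, so the gap was already wide at 2000 UMIs in H3R26C and smaller in H3WT. The median mitochondrial share went from 3.13% to 0.880% in H3WT and from 1.34% to 0.570% in H3R26C over the first span, and was 2.60% and 4.30% at 10000 to 19999 UMIs. The median share of the 6 genes went the other way at low depth, from 3.37% to 6.38% and from 3.42% to 5.08%. Among barcodes under the 1% limit the 6 genes had a median of 0.391% and 0.442% at 500 to 999 UMIs and of 0.0117% in both libraries from 20000 UMIs, so the level outside the chosen class was also higher at low depth. Because a barcode enters by its share of the 6 genes, the bins differ in how the barcodes were chosen as well as in depth.

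**Figure D3:**
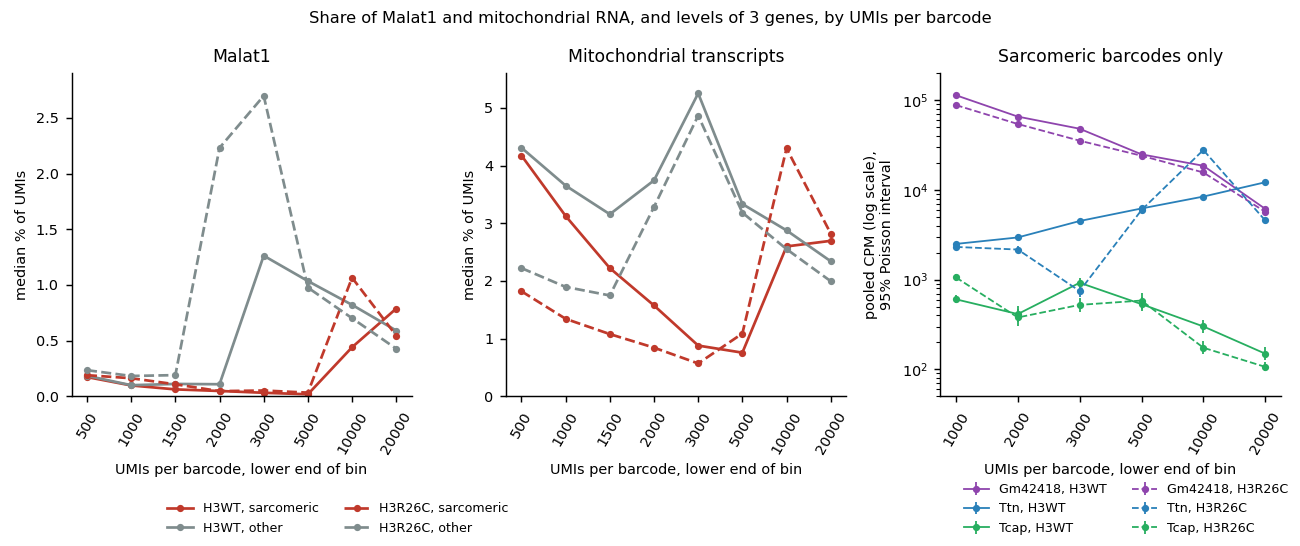
Median percent of UMIs per barcode in Malat1 (left) and in mitochondrial transcripts (middle) for barcodes at or above (red) and below (grey) the 1% limit, and summed CPM of 3 genes in sarcomeric barcodes on a log axis (right), by lower end of the UMI bin (x), in H3WT (solid) and H3R26C (dashed). Sarcomeric barcodes reach their lowest Malat1 median, 0.0183% and 0.0332%, at 5000 to 9999 UMIs; Gm42418 falls from 113701 to 6153 CPM in H3WT and from 88283 to 5706 CPM in H3R26C.

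Up to 10% of the 6 genes, low-count sarcomeric barcodes with a higher share of them had lower Malat1 and mitochondrial medians. In H3WT the 127 barcodes with 1 to 2% of the 6 genes had a median of 0.142% Malat1 and 4.05% mitochondrial UMIs, and the 199 with 5 to 10% had 0.0610% and 1.85%. In H3R26C the corresponding 103 and 192 barcodes had 0.169% and 1.58%, and 0.0836% and 0.916%. From 10% on, the 30 barcodes of H3WT had 0.0576% and 1.34%, and the 8 of H3R26C had 0.0895% and 1.20%, above the stratum before. High-count sarcomeric barcodes with 5 to 10% had medians of 0.0354% Malat1 and 1.40% mitochondrial UMIs in H3WT (38 barcodes). In H3R26C the 48 such barcodes had 0.233% and 2.43%. At that share of the 6 genes the low-count medians were thus higher in H3WT and lower in H3R26C. From 10% on, the 11 high-count barcodes of H3WT had 0.0156% and 0.969%, also below the low-count ones. The low-count Malat1 medians of all these strata rest on very few UMIs per barcode. At 1 to 2% the high-count Malat1 medians, 0.570% and 0.949%, lay above the low-count ones. Shares within a barcode sum to a fixed total, which alone moves them against each other slightly.

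The second comparison concerned muscle RNA outside the 6 genes. As a whole the remaining sarcomere list was at a like level at low and high count: 34794 against 38864 CPM in H3WT and 26644 against 27658 CPM in H3R26C, log2 ratios of -0.16 and -0.05. Its members did not move together. Over all genes, 37 of 3015 (1.23%) were past 2-fold higher and 261 (8.66%) past 2-fold lower in H3WT, and 80 of 3007 (2.66%) higher and 277 (9.21%) lower in H3R26C. Of the 40 listed sarcomere genes, 29 reached 50 CPM in H3WT, with 1 higher and 7 lower past 2-fold, and 28 in H3R26C, with 5 higher and 5 lower. Their median log2 ratios were -0.13 and 0.14, beside -0.07 and 0.02 for all genes.

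The summed RNAs of several large sarcomeric proteins were lower at low count. Ttn was at 3026 CPM against 10247 CPM in H3WT and 1934 against 9496 CPM in H3R26C, log2 ratios of -1.76 (-1.81 to -1.71) and -2.30 (-2.36 to -2.23). Nebulin (Neb), which runs along the thin filament, was at 474 against 1680 CPM and 317 against 1222 CPM. Myh3, the embryonic myosin heavy chain, was at 606 against 1503 CPM and 681 against 1893 CPM. Ttn, Neb and Myh3 were all past 2-fold lower in both libraries.

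RNAs of several small sarcomeric proteins had ratios above 0. Tcap (telethonin, the cap of titin at the Z-disc) was at 634 CPM against 247 CPM in H3WT and 795 against 142 CPM in H3R26C, log2 ratios of 1.36 (1.18 to 1.54) and 2.48 (2.33 to 2.64). Myl4, the embryonic and atrial essential light chain, was at 9831 against 7647 CPM and 4908 against 1900 CPM. Smpx and Myoz2 had ratios of 0.57 and 0.48 in H3WT and of 1.61 each in H3R26C, so that only the H3R26C values passed 2-fold. The other genes past 2-fold higher in H3R26C were Tcap, Myl4 and Tnnt1. The troponins Tnnt1, Tnnt2, Tnnc1 and Tnni2 lay between 0.05 and 1.11 in both libraries. The 6 genes of the rule, whose level chose the barcodes, included Acta1 at 20230 against 20436 CPM in H3WT and 19775 against 15942 CPM in H3R26C.

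Titin reads were also concentrated in a few barcodes. Ttn made 1% or more of UMIs in 17 low-count sarcomeric barcodes of each library (2.69% and 3.01% of the barcodes), which held 43.3% and 45.3% of the class's Ttn UMIs. In the high-count sarcomeric class 20 and 32 such barcodes held 80.0% and 72.6%, and their median Malat1 share was 1.78% and 3.37%, against 0.16% and 0.17% in the 17 low-count ones. Thinned to 1000 UMIs, a Ttn UMI was seen in 77.4% and 63.7% of low-count sarcomeric barcodes, and in 63.1% and 76.6% of high-count ones. Low-count other barcodes gave 66.5% and 48.2% at the same depth, and high-count other barcodes 13.6% and 10.4%. The median barcode had 0.156% of its UMIs in Ttn at low count against 0.115% at high count in H3WT, and 0.0874% against 0.307% in H3R26C. In H3WT the lower summed titin level was therefore not seen in the typical barcode.

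Across genes, the ratio of low to high count was lower for long transcripts, with length taken as the longest annotated transcript. Genes under 1000 nt had a median log2 ratio of -0.05 in H3WT and -0.02 in H3R26C (299 and 308 genes). Up to 4000 nt the medians stayed near 0: they were -0.01 and 0.07 from 1000 nt, and -0.03 and 0.10 from 2000 nt. They were -0.21 and -0.13 from 4000 nt, and genes of 8000 nt or more had -0.53 and -0.56 (168 and 155 genes). Of these, 19.6% and 24.5% were past 2-fold lower, beside 8.66% and 9.21% of all genes. Low-count other barcodes against high-count other ones had a median of 0.04 and 1.01 for genes of 8000 nt or more, but these classes also differ in Malat1 and in the kind of barcode, and the part of depth was not tested. In that contrast 1.85% and 12% of genes were past 2-fold higher and 3.46% and 3.27% lower. Long genes were also lower in low-count sarcomeric than in low-count other barcodes. There, genes of 8000 nt or more had medians of -1.09 and -1.95. Of these, 54.0% and 83.6% were past 2-fold lower, beside 21.3% and 34.3% of all genes. Over all muscle lists together, without the 6 genes of the rule, low against high count sarcomeric barcodes were compared by length. The 25 and 24 genes under 2000 nt had medians of -0.20 and 0.015 with 3 past 2-fold lower in each library. That count is near the 8.66% and 9.21% of all genes past 2-fold lower. The 23 and 21 genes of 4000 nt or more had medians of -1.25 and -1.19 with 12 lower in each. These ratios are of summed levels over all barcodes, and Ttn and Neb differed by less among barcodes under 0.1% Malat1 (below). The longest transcripts of titin, nebulin and Tcap have 106824, 22489 and 948 nt. Gene length and the other ways in which these genes differ cannot be told apart from these values.

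**Figure D4:**
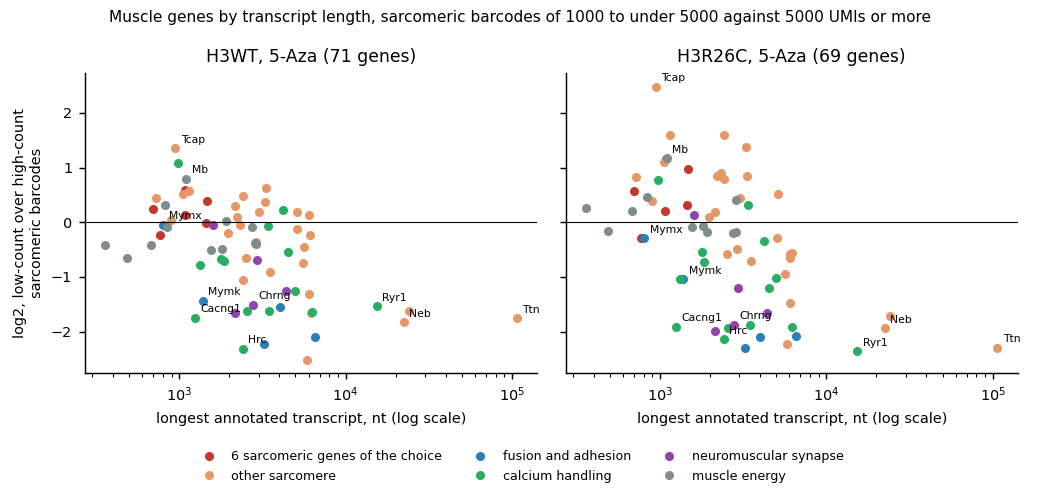
Log2 ratio of CPM in low-count over high-count sarcomeric barcodes (y) for the genes of the muscle lists without the regulators, by the length of the longest annotated transcript (x, log axis), in H3WT and H3R26C 5-Aza. Ttn lies far right at -1.76 and -2.30, and Tcap, at 948 nt, lies at 1.36 and 2.48.

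Genes of calcium handling, which couple the electrical signal to contraction, were lower as a group. The list's log2 ratio was -1.03 in H3WT and -1.24 in H3R26C. Among barcodes under 0.1% Malat1, a setting described below, it was -0.34 and -0.47. Of 17 genes, 14 reached 50 CPM in each library, with 7 past 2-fold lower and 1 higher (Pvalb, the calcium buffer parvalbumin) in H3WT and with 9 lower and 0 higher in H3R26C. Over all genes 8.66% and 9.21% were past 2-fold lower and 1.23% and 2.66% higher. Atp2a1, the calcium pump of the sarcoplasmic reticulum, was at 213 against 661 CPM and 182 against 676 CPM. Ryr1, the calcium release channel, was at 106 against 309 CPM and 53.7 against 280 CPM. Cacng1, a subunit of the voltage-gated calcium channel, was at 192 against 649 CPM and 155 against 587 CPM, although its transcript is only 1249 nt long. Cacnb1, another subunit of that channel, had ratios of -0.08 and 0.33 and did not pass 2-fold.

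Cell-fusion and synapse genes were lower too, with exceptions, and as lists by less among barcodes under 0.1% Malat1 (below). Mymk was at 507 against 1376 CPM in H3WT and 453 against 931 CPM in H3R26C, log2 ratios of -1.44 (-1.58 to -1.31) and -1.04 (-1.18 to -0.90). Mymx, its partner in fusion, was at 406 against 420 CPM and 778 against 956 CPM, within 2-fold in both. In all, 4 of the 5 fusion genes that reached 50 CPM were past 2-fold lower in each library, out of 7 listed, beside 8.66% and 9.21% of all genes. The acetylcholine receptor subunit Chrng, of the fetal muscle receptor, was at 161 against 460 CPM and 226 against 832 CPM, and Chrna1, its alpha subunit, at 167 against 400 CPM and 244 against 777 CPM. Of 9 synapse genes, 5 reached 50 CPM, and 3 in H3WT and 4 in H3R26C were past 2-fold lower, beside the same shares of all genes. Rapsn, which clusters the receptor under the membrane, had ratios of -0.06 and 0.14.

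The transcription factors of muscle differentiation were present at low count. Myog, the factor of terminal differentiation, had levels of 823 and 992 CPM in H3WT and H3R26C, against 1612 and 1557 CPM in high-count sarcomeric barcodes and 47.7 and 48.8 CPM in low-count other ones. Thinned to 1000 UMIs, a Myog UMI was seen in 41.7% and 52.2% of low-count sarcomeric barcodes, and in 61.2% and 56.6% of high-count sarcomeric barcodes. Low-count other barcodes gave 4.48% and 5.63%, and high-count other barcodes 1.37% and 2.11%. Myod1, the factor that specifies the lineage, was at 179 against 425 CPM in H3WT and 276 against 371 CPM in H3R26C. Mef2c, a cofactor of Myog, was at 644 against 417 CPM and 598 against 305 CPM. Of 13 listed regulators, 6 and 5 reached 50 CPM, and Myod1 in H3WT alone passed 2-fold. Such a count is near the 8.66% and 9.21% of all genes past 2-fold lower. Set against the 6 genes of the rule, the regulators gave 39.97 UMIs per 1000 rule UMIs (38.3 to 41.7) at low count in H3WT and 48.4 in H3R26C, and 62.6 and 69.6 at high count. The 6 genes chose the barcodes, so this divisor is itself selected. Low-count other barcodes gave 238 and 448, and high-count other barcodes 980 and 1048.

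Genes of muscle energy supply stayed nearer to equal as a sum, with log2 ratios of -0.01 and 0.22. Of 15 listed, 12 and 11 reached 50 CPM. Only Mb (myoglobin, the oxygen store of muscle) in H3R26C passed 2-fold, at 1288 against 572 CPM. Over all genes 1.23% and 2.66% were past 2-fold higher and 8.66% and 9.21% lower, so that count is near those shares. Ckm, muscle creatine kinase, was at 1347 against 1432 CPM in H3WT and 735 against 839 CPM in H3R26C. None of the 46 nuclear genes of oxidative phosphorylation and none of the 80 measured ribosomal protein genes passed 2-fold in either library, beside the same shares of all genes. Summed, the nuclear-encoded respiratory genes had a log2 ratio of -0.16 in H3R26C, where the mitochondrially encoded ones had -1.21.

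**Figure D5:**
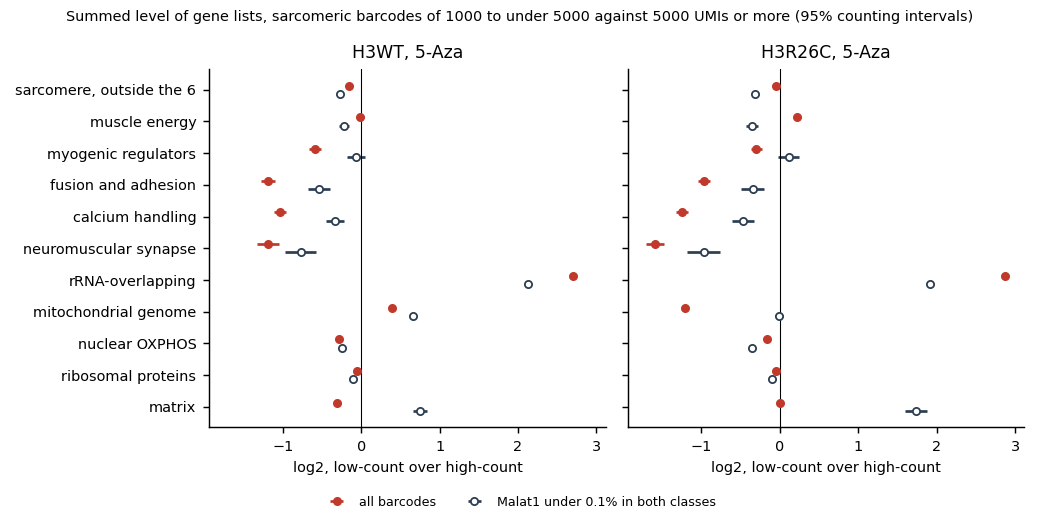
Log2 ratio of summed CPM in low-count over high-count sarcomeric barcodes (x) for each gene list (y), in H3WT and H3R26C 5-Aza, with 95% counting intervals; filled points are all barcodes, open points barcodes under 0.1% Malat1 in both classes. The genes overlapping ribosomal RNA lie at 2.71 and 2.87, and the fusion, calcium and synapse lists lie closer to 0 in the open points.

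Because the high-count class was rich in Malat1-rich barcodes, the comparison was repeated among barcodes with less than 0.1% Malat1, a setting added after the data were seen (393 and 282 low-count, 45 and 29 high-count barcodes). The fusion list was then at -0.54 and -0.34 (-1.19 and -0.97 over all barcodes) and the calcium list at -0.34 and -0.47, while other lists moved away from 0. Ttn was then at 2035 against 3312 CPM in H3WT and 1371 against 1350 CPM in H3R26C, log2 ratios of -0.70 and 0.02, and Neb was at 0.08 and -0.03. Atp2a1 was at 0.10 and -0.48, and Myog at -0.30 and 0.06. Mitochondrial RNA was at 0.66 in H3WT and -0.016 in H3R26C. The synapse list, at -1.19 and -1.59 over all barcodes, was at -0.77 and -0.97, with Chrng at -0.97 and -1.10. Tcap was at 0.50 and 0.83. The limit does not select like barcodes in both classes: at the median of 1477 and 1474 UMIs it means at most 1 Malat1 UMI, which sampling can give, while at high count it takes a minority of the class. These values are therefore given side by side, with no reading of what removed a difference. The sarcomere list outside the rule was at -0.28 and -0.32. The matrix list, which holds collagens and other fibroblast products, was at -0.30 in H3WT and 0.0080 in H3R26C over all barcodes and at 0.75 and 1.73 in this setting, 4511 against 2683 CPM and 5086 against 1528 CPM.

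Of the genes that overlap ribosomal RNA sequence, 3 of 4 in H3WT and 4 of 4 in H3R26C were past 2-fold higher at low count than in high-count sarcomeric barcodes. Over all genes 1.23% and 2.66% were. Gm42418 (ENSMUSG00000098178, chr17:39846958-39848788) was at 89704 CPM against 12420 CPM in H3WT and 69286 against 8605 CPM in H3R26C, log2 ratios of 2.85 (2.83 to 2.87) and 3.01 (2.99 to 3.03). It overlaps AY036118 on the opposite strand. The 4 genes of this list summed to 95118 and 74393 CPM in low-count sarcomeric barcodes, with the 97766 and 74833 CPM of low-count other barcodes beside them. That sum is mostly Gm42418: of the other genes of the list, Gm26917 was past 2-fold lower than in low-count other barcodes in both libraries, and AY036118 and Lars2 had log2 ratios between -0.83 and -0.22. The share of the 4 genes lowers every other gene of the low-count class. Scaled to the UMIs outside the 4 genes, all ratios move up by 0.12 in H3WT and 0.10 in H3R26C. The genes past 2-fold become 60 higher and 200 lower of 3154, and 114 higher and 224 lower of 3123.

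By the rule for named genes, ranked over both libraries, the 6 highest against high-count sarcomeric barcodes were Gm42418, Hist1h4d, Lars2, Tceal7, AY036118 and Rassf3. Hist1h4d, a histone H4 gene, was at 66.5 against 10.5 CPM in H3WT and 86.5 against 10.5 CPM in H3R26C. The 6 lowest were Olfml2b, Fgf21, Slc29a1, Cd82, Flnc and C1qtnf3. Fgf21, a secreted metabolic hormone, was at 11.7 against 111 CPM and 45.8 against 300 CPM. Slc29a1, a nucleoside transporter of the cell membrane, was at 138 against 829 CPM and 237 against 1569 CPM. Flnc, the muscle filamin, was at 84.5 against 464 CPM and 60.7 against 397 CPM. In all, 20 genes were higher and 145 lower past 2-fold in both libraries out of 2683 measured in both, and 0 went past 2-fold in opposite directions.

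Against low-count other barcodes, the contrast that the 1% limit itself made, the values are a description. Past 2-fold, 471 of 3439 genes (13.7%) were higher and 734 (21.3%) lower in H3WT, and 564 of 4018 (14.0%) higher and 1378 (34.3%) lower in H3R26C. The highest named genes were Myl4, Mybph, Tnnc1, Tnni1, Tceal7 and Csrp3, nearly all of them muscle genes outside the rule. The lowest were Kcnq1ot1, Neat1, Meg3, Sned1, Malat1 and Mir100hg, of which all but Sned1 are non-coding RNAs. Kcnq1ot1, a nuclear RNA that silences an imprinted cluster, was at 18.0 against 265 CPM and 13.9 against 277 CPM. The mitochondrial list had log2 ratios of -1.28 and -1.82, with all 13 genes past 2-fold lower in both libraries. Of the nuclear respiratory genes, 29 and 36 of 46 were past 2-fold higher and 0 lower.

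Markers of other cell types were read in the same barcodes. The endothelial list summed to 1.80 and 7.96 CPM, H3WT first, with 4 and 2 of its 5 genes at 0. The blood list summed to 2.70 and 10.9 CPM, with 4 and 3 of its 5 genes at 0, and the cardiac list to 8.09 and 15.9 CPM, with 3 and 2 of 5 at 0. The matrix list, at 5413 and 6761 CPM, lay well below the 16591 and 25045 CPM of low-count other barcodes, and near the 6676 and 6723 CPM of high-count sarcomeric ones. Against high-count sarcomeric barcodes, 20 and 18 of the 21 listed matrix genes reached 50 CPM, and 4 and 9 had ratios above 0. Past 2-fold, 0 and 2 were higher and 5 and 4 lower. Over all genes 1.23% and 2.66% were higher and 8.66% and 9.21% lower. Equal-depth shares are given for Col3a1, Col1a1 and Sparc only. At 1000 UMIs a Col3a1 UMI was seen in 45.3% and 48.1% of low-count against 23.3% and 23.4% of high-count sarcomeric barcodes. For Col1a1 the shares were 32.4% and 43.4% against 18.4% and 37.1%, and for Sparc 51.2% and 58.6% against 42.7% and 56.0%. Smooth muscle actin (Acta2) was at 4293 and 3810 CPM against 456 and 303 CPM in low-count other barcodes, and is read with the uncertainty between actins given above. Car3, an adipocyte marker that slow muscle also makes, was at 438 and 224 CPM against 353 and 56.5 CPM in high-count sarcomeric barcodes. Of 12 listed adipocyte genes, only 1 reached 50 CPM in this contrast. The list had log2 ratios of 0.30 and 1.17, but of -0.46 and 0.067 among barcodes under 0.1% Malat1. Against low-count other barcodes 4 and 3 of the 12 reached 50 CPM. Of these, 1 was past 2-fold higher in each library, and 2 and 1 were lower. Over all genes 13.7% and 14.0% were higher and 21.3% and 34.3% lower. The cell cycle list was at 127 and 200 CPM against 35.6 and 127 CPM, log2 ratios of 1.83 (1.39 to 2.29) and 0.65 (0.41 to 0.89), and at 416 and 609 CPM in low-count other barcodes. The part of free RNA or of fibroblast RNA in these values was not tested.

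Between the 2 libraries, the genotypes were compared within low-count sarcomeric barcodes as H3R26C over H3WT. Of 2896 genes, 91 (3.14%) were past 2-fold higher and 47 (1.62%) lower. Among high-count sarcomeric barcodes 93 of 3022 (3.08%) were higher and 119 (3.94%) lower. The mitochondrial list had a log2 ratio of -1.22 at low count, with 8 of 13 genes past 2-fold lower, but of 0.38 at high count. Of 13 interferon-responsive genes listed, 6 reached 50 CPM in either library. Those named here were under 50 CPM in H3WT and entered through their level in H3R26C, so their number past 2-fold is not counted as a result. Isg15, a ubiquitin-like protein induced by interferon, went from 15.3 CPM in H3WT to 108 CPM in H3R26C at low count, and from 15.2 to 107 CPM at high count. Ifi27l2a was at 10.8 and 149 CPM, and Bst2, a surface antiviral protein, at 39.6 and 149 CPM. Spp1 (osteopontin) was at 121 and 1027 CPM at low count and at 322 and 2229 CPM at high count. Tmsb10, which binds actin monomers, was at 5574 and 15035 CPM. Lower in H3R26C were Myl4, at 9831 and 4908 CPM, Pvalb, at 205 and 81.6 CPM, and Eln, elastin, at 98.9 and 19.9 CPM. Spp1 thus differed between the libraries in the same direction at low and at high count, and the summed mitochondrial list did not. Each value is that of 1 library.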

How the data were processed

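Per the labels and the study's methods, the authors sequenced 4 libraries of C3H10T1/2 cells, dissociated enzymatically and strained, and made the deposited counts, UMIs per gene and barcode, with Cell Ranger (6.1.0 in the file headers) on mm10 (GRCm38) with 32285 genes. The filtered matrices were used as deposited; the study's filter had not been applied to them and was not applied here. Seurat 4 stands in the submitters' processing notes. Groups came from the labels.

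Barcodes were put into classes by UMIs and by the share of the 6 genes; doublets were not removed. UMIs were summed per class and scaled to CPM. Genes reaching 50 CPM in either class were compared, with a pseudocount of 1 CPM and a 2-fold limit. Intervals are exact Poisson for sums and Clopper-Pearson for shares, at 95%. For a ratio, the Clopper-Pearson interval of one class's share of the counts of both was used. With 0 barcodes the limit is 3 counts. All intervals cover counting error only. With 1 library per condition no test across samples was run. Named genes were the 6 higher and 6 lower in both libraries with the largest smaller ratio. Shares were also read after thinning each barcode to 1000 UMIs with a fixed seed; barcodes below 1000 UMIs are left out. The members and lists were chosen with earlier results of these data known. For 341 of 341 listed genes, positions and transcript lengths were read from the GENCODE M21 annotation. The scripts were tested on simulated data (Python 3.11.15, numpy 2.4.6, scipy 1.17.1, pandas 2.3.3, matplotlib 3.10.9). Alternatives were a 5% limit, other UMI limits, a filter on mitochondrial share and genes, the mean over barcodes and a 20 CPM minimum; added after seeing the data were leaving out shared barcodes, Malat1-poor barcodes alone, and scaling without the genes that overlap ribosomal RNA.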

Additional observations from a re-analysis of the deposited data

Results flagged for a closer look

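The mitochondrial log2 ratio of low-count over high-count sarcomeric barcodes was 0.39 in H3WT 5-Aza and -1.21 in H3R26C 5-Aza, which are opposite directions in the 2 libraries. The H3WT ratio was 0.0012 with at most 20% mitochondrial UMIs and at least 500 genes, and -0.18 with the 5% limit. Among barcodes under 0.1% Malat1 the H3R26C ratio was -0.016. The difference between the libraries was not tested, since each genotype is 1 library. Outside the depth range of the comparisons, 1583 barcodes of 500 to 999 UMIs in H3WT 5-Aza and 798 in H3R26C 5-Aza also had at least 1% of the 6 sarcomeric genes, against 1 and 0 in the DMSO libraries. Their median Malat1 shares were 0.173% and 0.190%, and their median mitochondrial shares 4.17% and 1.82%.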

How the results depend on the processing

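No paired analysis was possible because there was 1 library per condition and no test was run. Leaving out a replicate was not possible either. Values are given for H3WT and then H3R26C. Counting depth limits single barcodes of about 1500 UMIs to the abundant genes.

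A 5% limit left 229 and 200 low-count sarcomeric barcodes, with nuclear log2 ratios of -2.96 and -2.50, mitochondrial ones of -0.18 (direction turned) and -1.51, sarcomere ratios of -0.073 and 0.012 (turned), and 23.6 and 30.4 regulator UMIs per 1000 rule UMIs. Starting at 2000 UMIs left 160 and 147 barcodes, with nuclear ratios of -0.96 and -0.75, mitochondrial 0.44 and -1.43, sarcomere 0.055 and 0.0065 (both turned), and regulators 35.6 and 41.1. A high-count class from 10000 UMIs moved the H3WT ratios to -1.97, 0.36 and -0.11 (nuclear, mitochondrial, sarcomere). With at most 20% mitochondrial UMIs and at least 500 genes the nuclear ratios were -2.30 and -1.40, the mitochondrial ones 0.0012 and -1.35, and the sarcomere ratio of H3WT -0.13. The mean over barcodes gave nuclear ratios of -2.13 and -2.20, mitochondrial 0.49 and -1.30, and sarcomere -0.32 and -0.33.

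Of the alternatives chosen after seeing the data, leaving out shared barcodes moved H3WT to -2.02 (nuclear) and -0.19 (sarcomere). Barcodes under 0.1% Malat1 gave mitochondrial ratios of 0.66 and -0.016 and sarcomere ratios of -0.28 and -0.32. Scaling without the 4 genes that overlap ribosomal RNA gave nuclear -1.66 and -1.36, mitochondrial 0.52 and -1.11, and sarcomere -0.037 and 0.043 (turned). The nuclear ratio was below 0 in both libraries under the alternatives above that do not select on Malat1. These ratios rest on sums or means. At 5 to 10% sarcomeric RNA the H3WT median share of the nuclear list was higher at low count, 0.0656% against 0.0368%. Over the whole H3WT class the median was lower at low count, 0.0912% against 0.370%. Among barcodes under 0.1% Malat1 the nuclear list is limited by the selection itself, and its values of 0.86 and 0.41 say nothing about the comparison. The sarcomere ratio changed sign within a narrow range around 0.

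With a minimum of 20 CPM, the genes past 2-fold against high-count sarcomeric barcodes were 96 higher and 562 lower in H3WT and 183 and 541 in H3R26C, and those lower than in low-count other barcodes 1630 and 2779; more genes were then compared. The remaining 44 values under an alternative stayed within their counting interval, for genes detected at equal depth within the quartiles over barcodes, or, for counts of genes or barcodes, within 1.5 times. The cause of these changes was not tested.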

Other observations

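Of the 17 immediate early genes listed, 10 reached 50 CPM in H3WT and 8 of them were past 2-fold lower in low-count than in high-count sarcomeric barcodes, beside 8.66% of all genes. In H3R26C 6 reached 50 CPM and 0 were past 2-fold lower, beside 9.21% of all genes; the difference between the libraries was not tested. The summed list had log2 ratios of -1.0045 in H3WT and -0.14 in H3R26C, and of 0.33 and 0.72 among barcodes under 0.1% Malat1, so its direction turned in that setting. Junb, an AP-1 factor, was at 122 against 347 CPM and 127 against 168 CPM over all barcodes. The cell-cycle inhibitor Cdkn1a was at 2872 against 3862 CPM in H3WT and 2074 against 2033 CPM in H3R26C, and at 386 and 249 CPM in low-count other barcodes.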
